A study of Mus musculus with 6 samples.

Results

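The genes described here encode the secreted Wnt ligands, the proteins that release these ligands, the Frizzled and kinase-like receptors, the R-spondins, the secreted antagonists with their Kremen receptors, and the Dishevelled proteins. They were measured by RNA sequencing in HK-2 cells, which are immortalized epithelial cells of the human kidney's proximal tubule, with and without overexpression of USAG-1. USAG-1, the product of SOSTDC1, is a secreted protein that antagonizes BMP ligands and binds the Wnt co-receptors of the LRP family. Members were taken by symbol: the numbered WNT, FZD, SFRP, DKK, DVL and RSPO genes, together with FRZB, WIF1, KREMEN1, KREMEN2, PORCN, WLS, ROR1, ROR2 and RYK. Among the 39234 genes of the count table, 49 met this rule, and 27 of them were among the 18188 genes with enough counts for a test. The count table lists no gene as WNT6, WNT8A, FZD10 or SFRP1, so their levels are not known here. A gene was called differentially expressed when edgeR's quasi-likelihood test gave an adjusted p under 0.05, at any fold change.

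In the canonical branch of the pathway, a lipid-modified Wnt ligand brings a Frizzled receptor together with an LRP co-receptor, and Dishevelled proteins then restrain the complex that degrades beta-catenin, which acts in the nucleus with TCF and LEF factors. Other ligands act through Frizzled, ROR or RYK receptors on cell polarity and on calcium. Dickkopf proteins such as DKK1 act at the co-receptors, SFRP proteins and WIF1 bind the ligands, and R-spondins keep receptors at the surface. In the kidney the pathway is known for its part in nephron formation and in the response of tubules to injury.

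All libraries carry the labels of wild-type HK2 cells, of proximal tubular epithelium and of kidney. The labels name mouse as the organism, although the line and the gene identifiers are human. The 3 controls are titled only as controls, so what they received is not given in the labels. The other 3 libraries are titled as USAG-1 overexpression, which the study's methods describe as a transient plasmid transfection. Nothing in the labels says that the libraries of a group came from separate cultures, so p-values measure the spread between these samples, which may be technical. Library totals were 41236194, 48699471 and 44611384 counts in control replicates 1, 2 and 3, and 45448720, 43837891 and 42782931 counts in overexpression replicates 1, 2 and 3.

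SOSTDC1 itself had 79, 80 and 60 counts in the controls and 5072, 3907 and 4438 counts in the overexpression libraries. Its level rose by 5.94 on the log2 scale (SE 0.13, adjusted p = 6.97e-07), and every library matched its label. Genes that overlap SOSTDC1 averaged at most 2.33 CPM, a unit that gives the count of a gene relative to the library's size. In a principal component analysis of log2 CPM, the first component held 39.1% of the variance and separated the groups. Control replicate 3 stood apart on the second component, which held 21.3% of the variance, at -54.3 against 28.2 and 25.2 for the other controls. The overexpression libraries lay between -16.4 and 22.2 on that component. For this reason counts of called genes, and log2 fold changes of single Wnt genes at many places, are also given without control replicate 3. Without it the log2 fold change of SOSTDC1 was 5.86 (adjusted p = 1.38e-08). Mitochondrially encoded genes made up 5.29% ± 0.426 (SD, n = 3) of the counts in control cells and 1.53% ± 0.0255 (SD, n = 3) in overexpressing cells.

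Markers of other cell types were looked at in the same libraries. Of 19 genes of T and cytotoxic cells, all tested, 18 were called lower in the overexpression libraries, beside 6.91% of all genes tested. The median log2 fold change of the list was -3.21. The sum of this list was 122, 117 and 140 CPM in the controls and 20.3, 15.0 and 14.3 CPM under overexpression, with GNLY as its most abundant gene and none of its genes at 0 in every library. Whether the RNA behind these markers has a part in the results for the Wnt genes was not tested, and the same holds for the mitochondrial share. Of 17 genes of proximal tubule and tubular epithelium, 11 were tested, with KRT8 the most abundant. PAX8, CDH2 and GGT1 were called higher and CDH6 was called lower (36.4%, beside 15.9% of all genes tested). Without control replicates 1 and 2 the called genes of this list numbered 2 and 1. They numbered 0, 1 and 0 without overexpression replicates 1, 2 and 3. Among genes of the differentiated proximal tubule, LRP2 was at 0 in every library and CUBN, AQP1 and HNF4A were too low to be tested, whereas ANPEP, SLC5A2 and SLC34A1 were tested and not called. Among 6 B cell genes, edgeR called none, with 1 at an unadjusted p under 0.05 and 1 called by DESeq2. Of erythroid and platelet genes 6 were tested, and of endothelial genes 2, with 0 at an unadjusted p under 0.05 and 0 called by edgeR or DESeq2. The erythroid and platelet sum, in which HBB was the most abundant gene, was 111 CPM in control replicate 2 and 77.8 CPM in overexpression replicate 1, against 8.19 to 19.9 CPM in the other libraries, and HBA1 and HBA2 were also highest in control replicate 2 and overexpression replicate 1. Among 8 myeloid genes 1 was called higher and 2 were called lower (37.5%, beside 15.9% of all genes tested). The median log2 fold change of the myeloid list was -0.15. Its called genes numbered 1 and 2 without control replicates 1 and 2. They numbered 1, 1 and 1 without overexpression replicates 1, 2 and 3. Among 3 tested fibroblast genes 1 was called higher (33.3%), where 15.9% of all genes tested were called. The distal nephron genes were too low to be tested. The myeloid gene S100A8, not called, varied within the groups, at 2.87, 1.92 and 23.0 CPM in the controls and 2.22, 16.2 and 9.96 CPM under overexpression. Control replicate 3 was thus the highest library for S100A8, as it was for S100A9 and TYROBP, and overexpression replicates 2 and 3 were above overexpression replicate 1 for these genes. Leaving out control replicate 3, the called genes numbered 18 of 19 for T and cytotoxic cells and 6 of 12 for tubular epithelium. They numbered 1 of 6 for B cells, 4 of 8 for myeloid cells and 1 of 3 for fibroblasts. There were 0 for the erythroid, endothelial and distal nephron lists. In that fit 27.0% of all genes tested were called. With each other library left out, the share of all genes tested lay between 5.98% and 10.2%.

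Of the 27 members tested, 5 were called differentially expressed, a share of 18.5% beside 15.9% of all genes tested. DKK1, DVL3, FZD7 and ROR1 rose, where 8.95% of all genes tested were higher, and WNT7B fell, where 6.91% were lower. An unadjusted p under 0.05 was reached by 10 of the 27 members, beside 30.5% of all genes tested. Among the members tested, the groups did not overlap for 8 that were higher under overexpression and for 3 that were lower, beside 19.4% and 18.1% of all genes tested. The median log2 fold change over the members tested was 0.07, and over all genes tested it was -0.02. With no filter on low counts these medians were -0.10 over 42 members and -0.07 over all genes. In RNA from whole cultures, fewer cells that express a gene and less RNA of it per cell cannot be told apart. Without control replicate 3, 11 of 28 members tested were called, 10 of them higher, beside 27.0% of all genes tested in that fit. The count was 3 without control replicate 1 and 3 without control replicate 2, where 10.2% and 8.74% of all genes tested were called. It was 1, 1 and 2 without overexpression replicates 1, 2 and 3, where the shares of all genes tested were 6.92%, 5.98% and 7.09%. The number of called members thus moved together with the share over all genes. DKK1 was called in each of these fits. The number of members with at least 1 count was 38, 35 and 32 in control replicates 1, 2 and 3. It was 31, 30 and 30 in the overexpression libraries. Over all genes it was 25495, 26215 and 24695 in the controls and 24446, 24037 and 24186 under overexpression.

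**Figure D1:**
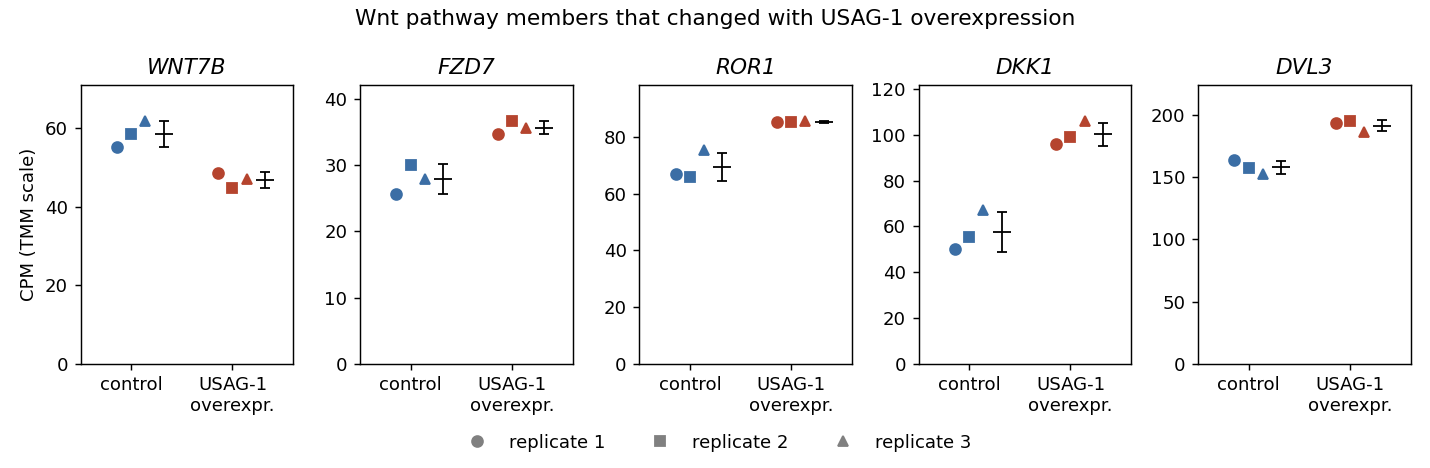
CPM on the TMM scale (vertical axes, from 0) of WNT7B, FZD7, ROR1, DKK1 and DVL3 in each library, with 3 control libraries in blue, 3 USAG-1 overexpression libraries in red, a marker shape for each replicate number, and black bars for the group mean with its SD. The groups do not overlap in any of the panels, WNT7B is lower under overexpression, and DKK1 lies between 50.4 and 67.4 CPM in the controls and between 96.1 and 106 CPM under overexpression.

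Among the 17 genes of Wnt ligands, 6 were tested and 1 was called (16.7%, beside 15.9% of all genes tested). Without control replicate 3, 1 of 6 tested ligands was called as well, beside 27.0% of all genes tested in that fit. WNT7B, a ligand made by epithelia, lies on chromosome 22 from 45920366 to 45977162 (build hg38). Its level was 55.2, 58.5 and 61.7 CPM in control replicates 1, 2 and 3 and 48.5, 44.6 and 47.0 CPM in the overexpression libraries. Every overexpression library was below every control, and the highest of them was 6.67 CPM below the lowest control. WNT7B fell by 0.32 on the log2 scale (SE 0.07, adjusted p = 0.0161), to 80.0% of the control level. Leaving out control replicate 3 gave a log2 fold change of -0.28 (adjusted p = 0.00626). It missed the threshold without control replicate 2 (0.0557), overexpression replicate 1 (0.0549), overexpression replicate 2 (0.0903) or overexpression replicate 3 (0.0703), with a log2 fold change between -0.35 and -0.29 in these fits.

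WNT5B, a ligand of the branch that does not use beta-catenin, had 30.6, 29.1 and 34.7 CPM in the controls and 26.9, 28.7 and 23.6 CPM under overexpression. The groups did not overlap, but overexpression replicate 2 came within 0.424 CPM of control replicate 2, and the log2 fold change of -0.25 (SE 0.10, adjusted p = 0.125) did not pass the test. Without control replicate 3 it was -0.17 (adjusted p = 0.170), and with each other library left out it lay between -0.32 and -0.18, without a call. WNT5B overlaps FBXL14 on the other strand, which averaged 14.2 CPM, and whether reads were counted by strand is not given in the sources used here, so its level is uncertain. WNT2B, a ligand of the canonical branch, had 6.05 ± 0.570 CPM in control cells and 5.62 ± 0.449 CPM in overexpressing cells (SD, n = 3), with overlapping groups (log2 fold change -0.11, adjusted p = 0.665). Its log2 fold change was -0.10 without control replicate 3, -0.04 without control replicate 2 or overexpression replicate 2, and -0.17 without control replicate 1. It shares its position with ST7L on the other strand, at 18.2 CPM, and is uncertain for the same reason.

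The other ligands in the count table were scarce. WNT3 had 2.73, 2.61 and 2.18 CPM in the controls and 3.31, 3.07 and 2.85 CPM under overexpression, so its groups did not overlap. WNT5A had 15 to 26 counts in the controls and 25 to 31 under overexpression, and WNT10B had 18 to 30 and 17 to 29. These 3 ligands were tested and not called. WNT4, a ligand of the developing nephron, had 11, 10 and 4 counts in the controls and 0 in each overexpression library, without overlap, and was too low to be tested. WNT9A had 17, 4 and 6 counts in the controls and 0, 3 and 8 under overexpression, and WNT1 had 12 counts in overexpression replicate 1 and 0 elsewhere. WNT3A, WNT7A, WNT8B, WNT10A and WNT16 had at most 12 counts in any library, and WNT2, WNT9B and WNT11 had 0 in all of them. A count of 0 allows up to 3 counts, which is 0.0607 to 0.0718 CPM at these depths, and this limit covers counting error only, because PCR copies without molecular identifiers are not independent molecules.

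Neither gene of ligand secretion was called by edgeR or DESeq2, and 1 had an unadjusted p under 0.05. PORCN, the acyltransferase that attaches the lipid to Wnt ligands, had 10.6, 12.9 and 14.2 CPM in the controls and 9.03, 8.42 and 11.3 CPM under overexpression. Overexpression replicate 3 was above control replicate 1, so the groups overlapped, and the log2 fold change was -0.39 (SE 0.16, adjusted p = 0.129), or -0.29 (adjusted p = 0.216) without control replicate 3. With each other library left out it lay between -0.52 and -0.30, without a call. WLS, the carrier that takes the lipidated ligand to the cell surface, had 64.7, 68.3 and 80.2 CPM in the controls and 77.6, 86.1 and 78.8 CPM under overexpression. Control replicate 3 lay among the overexpression libraries. The log2 fold change of WLS was 0.19 (SE 0.09, adjusted p = 0.206) with that library and 0.29 (adjusted p = 0.00557) without it, which passed the threshold. With each other library left out it lay between 0.12 and 0.22 and did not pass.

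**Figure D2:**
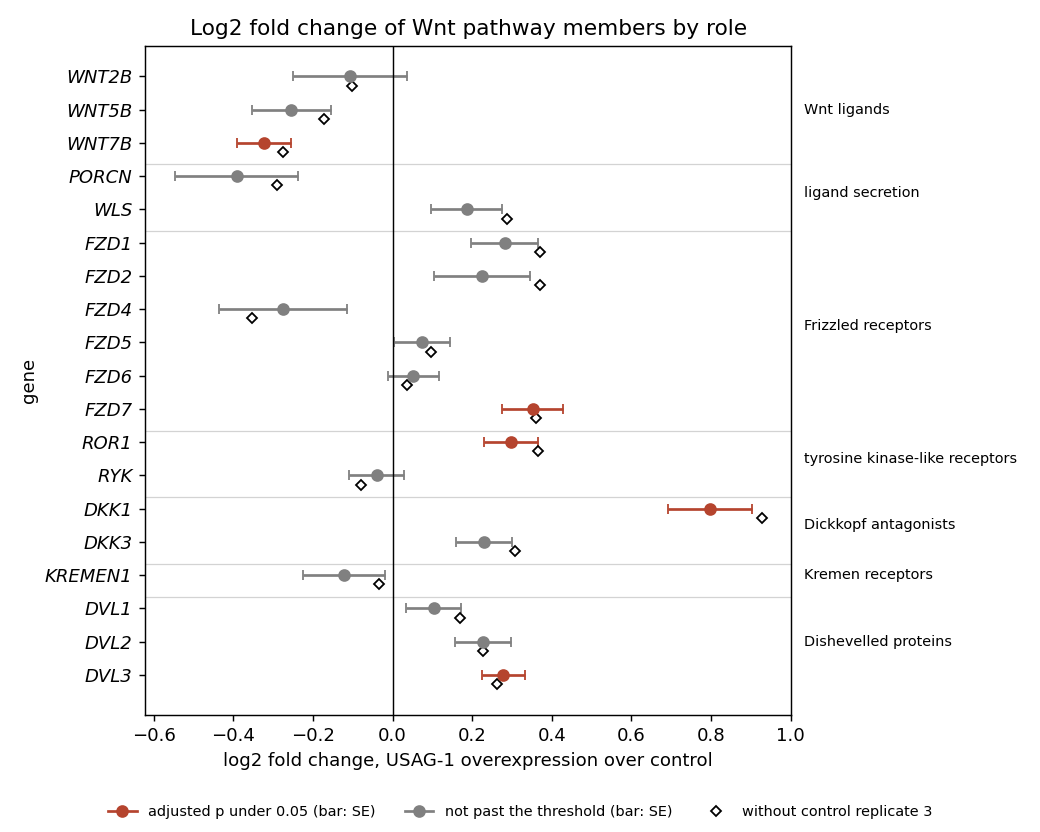
Log2 fold change of USAG-1 overexpression over control (horizontal axis) for the 19 members with at least 5 CPM on average, ordered by role (vertical axis), with bars for 1 SE on each side, red circles for the 5 called members, grey circles for the others, and open diamonds for the value without control replicate 3. DKK1 has the highest value, 0.80, and the 3 Dishevelled genes all lie above 0.

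Frizzled receptors bind the ligands at the cell surface. Of 9 genes in the table, 8 were tested, 1 was called (12.5%, beside 15.9% of all genes tested), 5 had a log2 fold change above 0 and 3 below, where 47.5% of all genes tested were above 0, and the median was 0.06 beside -0.02. In the fit without control replicate 3, 3 of 9 tested Frizzled genes were called, beside 27.0% of all genes tested. FZD7 (chromosome 2, 202033855 to 202038441) had 25.7, 30.1 and 28.0 CPM in the controls and 34.6, 36.6 and 35.6 CPM under overexpression. All overexpression libraries were above all controls, and no other gene of the table overlaps it. FZD7 rose 1.28-fold (log2 fold change 0.35, SE 0.08, adjusted p = 0.0191). Leaving out control replicate 3 gave a log2 fold change of 0.36 (adjusted p = 0.00816). The call was lost without control replicate 1 (adjusted p = 0.0619), overexpression replicate 1 (0.0618), overexpression replicate 2 (0.0935) or overexpression replicate 3 (0.0758), with a log2 fold change between 0.30 and 0.37.

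FZD1 and FZD2, receptors close in sequence to FZD7, were not called with all libraries. FZD1 had 40.5, 41.3 and 48.2 CPM in the controls and 50.5, 55.8 and 51.7 CPM under overexpression, so the groups did not overlap, but control replicate 3 stood nearest to the overexpression libraries. Its log2 fold change was 0.28 (SE 0.08, adjusted p = 0.0562), and 0.37 (adjusted p = 0.00164) without control replicate 3. With each other library left out it lay between 0.24 and 0.31 and was not called. FZD2 had 22.8, 21.8 and 29.1 CPM in the controls and 26.9, 31.3 and 27.9 CPM under overexpression, with control replicate 3 among the overexpression libraries. The log2 fold change of FZD2 was 0.22 (SE 0.12, adjusted p = 0.256), and 0.37 (adjusted p = 0.00958) without that control. It was 0.14 (adjusted p = 0.539) without control replicate 2 and 0.16 (adjusted p = 0.551) without overexpression replicate 2. Reads that map equally well to these related receptors cannot be traced here, since the counting of shared reads is not given in the sources used here.

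FZD4, the receptor for norrin as well as for Wnt ligands, had 11.7, 8.34 and 8.32 CPM in the controls and 7.75, 8.26 and 7.43 CPM under overexpression. The groups were separated by 0.0581 CPM, control replicate 1 was the high value, and the log2 fold change of -0.28 (SE 0.16) had an adjusted p of 0.293. It was -0.09 (adjusted p = 0.725) without control replicate 1 and -0.35 (adjusted p = 0.143) without control replicate 3. FZD4 lies across from PRSS23, which averaged 224 CPM on the other strand, so its level is uncertain. FZD5, a receptor known from the development of the eye and of vessels, averaged 32.4 ± 1.75 CPM in the controls and 34.1 ± 1.17 CPM under overexpression (log2 fold change 0.07, adjusted p = 0.527), with overlapping groups. FZD6, which serves in planar cell polarity, had 113 ± 3.34 and 117 ± 6.96 CPM (SD, n = 3, log2 fold change 0.05, adjusted p = 0.634), again with overlap. Without control replicate 3 the log2 fold change of FZD5 was 0.10 and that of FZD6 was 0.04. It was 0.03 for FZD5 without control replicate 2 and 0.00618 for FZD6 without overexpression replicate 1. FZD4, FZD5 and FZD6 passed the threshold in none of the fits with a library left out. The remaining receptors were low: FZD8 had 60 to 84 counts in the controls and 63 to 66 under overexpression, FZD9 had 64 to 139 and 58 to 91, and both were tested and not called. FZD3 had 16, 14 and 10 counts in the controls and 6, 5 and 0 under overexpression, without overlap, and was not tested.

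Wnt ligands also bind receptors built like tyrosine kinases. ROR1, which binds WNT5A in the branch without beta-catenin, lies on chromosome 1 from 63774017 to 64181498. Its level was 67.1, 66.0 and 75.3 CPM in the controls and 85.2, 85.2 and 85.6 CPM under overexpression. The overexpression libraries were all above the controls and within 0.356 CPM of each other, and control replicate 3 was the highest control. ROR1 rose 1.23-fold (log2 fold change 0.30, SE 0.07, adjusted p = 0.0212), and by 0.37 on the log2 scale (adjusted p = 3.15e-04) without control replicate 3. Leaving out any other library ended the call: the adjusted p was 0.0710 without control replicate 1, 0.0807 without control replicate 2, 0.0858 without overexpression replicate 1, 0.0871 without overexpression replicate 2 and 0.0836 without overexpression replicate 3. Genes that overlap ROR1 reached at most 0.535 CPM. RYK, a receptor with an inactive kinase domain, had 92.6, 84.2 and 80.2 CPM in the controls and 83.7, 85.3 and 80.9 CPM under overexpression. The ranges of RYK overlapped and its log2 fold change of -0.04 (SE 0.07, adjusted p = 0.744) turned to 0.02 (adjusted p = 0.891) without control replicate 1 and was -0.08 (adjusted p = 0.307) without control replicate 3. ROR2, the close relative of ROR1, had 9, 26 and 12 counts in the controls and 0, 0 and 4 under overexpression, without overlap, and was not tested.

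The antagonist DKK1 showed the largest change of the called members. DKK1, a secreted inhibitor that binds LRP co-receptors and is itself a well-known target of beta-catenin, lies on chromosome 10 from 52314281 to 52317657. Its level was 50.4, 55.6 and 67.4 CPM in control replicates 1, 2 and 3, and 96.1, 98.9 and 106 CPM in overexpression replicates 1, 2 and 3. The lowest overexpression library was 28.7 CPM above the highest control, which was control replicate 3. DKK1 rose 1.74-fold (log2 fold change 0.80, SE 0.11, adjusted p = 0.00254), from 57.8 ± 8.71 CPM to 100.3 ± 5.09 CPM (SD, n = 3). Without control replicate 3 the log2 fold change was 0.93 (adjusted p = 2.76e-05), and over all 15 alternatives it lay between 0.71 and 0.93. PRKG1-AS1, on the other strand of the same stretch, averaged 2.31 CPM.

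DKK3, a divergent member of the family that does not bind the LRP co-receptors as DKK1 does, had 279, 275 and 320 CPM in the controls and 327, 353 and 345 CPM under overexpression. The groups did not overlap, with control replicate 3 closest to the overexpression libraries. The log2 fold change was 0.23 (SE 0.07, adjusted p = 0.0648), and 0.31 (adjusted p = 5.99e-04) without control replicate 3. With each other library left out it lay between 0.19 and 0.26 and was not called. USP47 lies on the other strand of DKK3 at 80.8 CPM, so a part of its counts is uncertain. DKK2 had 4 counts in control replicate 1 and 0 elsewhere, and DKK4 had 0 in every library.

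Kremen receptors bind DKK1 and take the co-receptor off the surface. KREMEN1 had 20.2, 18.6 and 22.8 CPM in the controls and 17.5, 18.8 and 20.3 CPM under overexpression. These ranges overlapped, and the log2 fold change of -0.12 (SE 0.10, adjusted p = 0.475) became -0.03 (adjusted p = 0.829) without control replicate 3, -0.07 (adjusted p = 0.781) without overexpression replicate 1 and -0.19 (adjusted p = 0.334) without control replicate 2. Of both Kremen genes, edgeR and DESeq2 called 0, and 0 had an unadjusted p under 0.05. KREMEN2 had 170 to 249 counts in the controls and 154 to 207 under overexpression, was not called, and shares its position with PKMYT1 on the other strand. The count table held 5 antagonists that bind the ligands, without SFRP1, and these 5 were nearly undetected. SFRP4 had 10, 16 and 0 counts in the controls and 24, 27 and 10 under overexpression, and was tested and not called. FRZB, SFRP2, SFRP5 and WIF1 had at most 14 counts in any library and were not tested. Among the R-spondins, which raise the sensitivity of cells to Wnt ligands, RSPO3 had 125 to 216 counts in the controls and 144 to 233 under overexpression and was not called. RSPO1, RSPO2 and RSPO4 had 0 counts in all libraries.

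Dishevelled proteins carry the signal from Frizzled receptors into the cytoplasm. The log2 fold change was above 0 for all 3 genes with each scaling used, where 47.5% of all genes tested were above 0. Of these genes 1 was called, beside 15.9% of all genes tested, and all 3 were called without control replicate 3, beside 27.0%. DVL3 (chromosome 3, 184155377 to 184173614) had 164, 157 and 153 CPM in the controls and 193, 195 and 186 CPM under overexpression. The overexpression libraries were all higher, with 22.6 CPM between the groups, and no other gene of the table overlaps DVL3. It rose 1.21-fold (log2 fold change 0.28, SE 0.05, adjusted p = 0.0124), and by 0.26 on the log2 scale (adjusted p = 0.00115) without control replicate 3. The adjusted p was 0.0665 without overexpression replicate 1 and 0.0668 without overexpression replicate 2, where the call was lost. DVL2 had 30.4, 34.0 and 31.9 CPM in the controls and 36.1, 39.1 and 37.6 CPM under overexpression. The groups of DVL2 did not overlap, and its log2 fold change of 0.23 (SE 0.07) passed the threshold without control replicate 3 (adjusted p = 0.0369) and missed it with all libraries (adjusted p = 0.0654) and with each other library left out, at 0.19 to 0.27. DVL1 had 117, 109 and 127 CPM in the controls and 124, 129 and 127 CPM under overexpression, with overlapping groups. Its log2 fold change was 0.10 (SE 0.07, adjusted p = 0.364), and 0.17 (adjusted p = 0.0245) without control replicate 3, but 0.05 (adjusted p = 0.729) without control replicate 2.

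The pathway beyond these members was followed through 4 lists. Of 16 genes of co-receptors and the R-spondin arm, 11 were tested, 2 were higher and 1 was lower (27.3% called, beside 15.9% of all genes tested), with a median log2 fold change of 0.14 beside -0.02. SOST, the closest relative of SOSTDC1, was at 0 in every library. LRP6, the co-receptor that DKK1 and USAG-1 bind, had 87.7, 84.5 and 80.2 CPM in the controls and 120.6, 122.9 and 112 CPM under overexpression. Every overexpression library of LRP6 was above every control, and its log2 fold change was 0.49 (SE 0.06, adjusted p = 0.00236). GPC4, a cell-surface proteoglycan that binds Wnt ligands, rose from 142 ± 2.46 to 194 ± 5.83 CPM (SD, n = 3, log2 fold change 0.45, adjusted p = 0.00170). NOTUM, the secreted enzyme that removes the lipid from Wnt ligands, fell from 1.10 ± 0.110 to 0.289 ± 0.137 CPM (log2 fold change -1.92, SE 0.41, adjusted p = 0.0176). The adjusted p of NOTUM was 0.0597 without control replicate 1, 0.0511 without control replicate 2, 0.0610 without overexpression replicate 1 and 0.0769 without overexpression replicate 2. Without control replicate 3 the log2 fold change of LRP6 was 0.47, that of GPC4 0.47 and that of NOTUM -1.94, all called. The list then had 6 called genes, where 27.0% of all genes tested were called, and it had 2 without control replicate 2 (8.74% of all genes), overexpression replicate 1 (6.92%) or overexpression replicate 2 (5.98%).

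In the list of the destruction complex and cytoplasmic arm, 23 genes were tested, 1 was higher and 1 was lower (8.70% called, beside 15.9% of all genes tested), and the median log2 fold change was 0.02 beside -0.02. GSK3B, the kinase that marks beta-catenin for degradation, rose from 104 ± 3.98 to 130 ± 3.54 CPM (log2 fold change 0.32, SE 0.06, adjusted p = 0.00833). APC2, a relative of the scaffold protein APC, fell from 12.8 ± 1.49 to 9.17 ± 0.619 CPM (log2 fold change -0.48, SE 0.12, adjusted p = 0.0343). The groups of both genes did not overlap, but APC2 is covered on the other strand by C19orf25, at 16.4 CPM. GSK3B missed the threshold without overexpression replicate 2 (adjusted p = 0.0517). APC2 missed it without control replicate 1 (0.102), control replicate 2 (0.108), overexpression replicate 1 (0.0788), overexpression replicate 2 (0.134) or overexpression replicate 3 (0.113). APC2 also missed it with the replicate number as a block (0.0543). Both genes were called without control replicate 3, at 0.35 for GSK3B and -0.57 for APC2. Called genes numbered 4 in that fit, 0 without overexpression replicate 2 and 1 without control replicate 1, control replicate 2, overexpression replicate 1 or overexpression replicate 3, while the share of all genes tested moved between 27.0% and 5.98%.

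Of 17 tested genes of the nuclear arm, 7 were higher and 1 was lower (47.1% called, beside 15.9% of all genes tested), and the median log2 fold change was 0.16 beside -0.02. TLE1, a co-repressor that TCF factors recruit, had 139, 131 and 130 CPM in the controls and 190, 201 and 191 CPM under overexpression, a log2 fold change of 0.54 (SE 0.06, adjusted p = 0.00106). The histone acetyltransferases EP300 and CREBBP, which beta-catenin recruits as co-activators, were both higher in every overexpression library. EP300 rose by 0.43 on the log2 scale (SE 0.06, adjusted p = 0.00236) and CREBBP by 0.33 (SE 0.05, adjusted p = 0.00635). CTNNBIP1, which keeps beta-catenin from binding TCF factors, fell from 7.81 ± 1.03 to 5.37 ± 0.151 CPM (log2 fold change -0.54, adjusted p = 0.0361). Its call was lost without any 1 of the libraries. The adjusted p was 0.0504, 0.0779 and 0.0512 without control replicates 1, 2 and 3. It was 0.119, 0.107 and 0.113 without overexpression replicates 1, 2 and 3, and 0.0626 with the replicate number as a block. The log2 fold change without control replicate 3 was 0.53 for TLE1, 0.43 for EP300 and 0.33 for CREBBP, all called, and -0.42 for CTNNBIP1. The list had 10 called genes without control replicate 3, 4 without control replicate 1, control replicate 2 or overexpression replicate 3, 5 without overexpression replicate 1 and 3 without overexpression replicate 2. The share of all genes tested was 27.0% in the fit without control replicate 3 and between 5.98% and 10.2% in the others.

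Of 28 tested genes of planar cell polarity and the calcium arm, 3 were higher and 2 were lower (17.9% called, beside 15.9% of all genes tested), and the median log2 fold change was 0.08 beside -0.02. DAAM1, a formin that links Dishevelled to the actin cytoskeleton, had 9.84, 11.5 and 10.03 CPM in the controls and 17.8, 16.8 and 17.8 CPM under overexpression. Every overexpression library of DAAM1 was above every control, and its log2 fold change was 0.74 (SE 0.10, adjusted p = 0.00271). CAMK2D, a calcium-dependent kinase, rose by 0.62 (SE 0.10, adjusted p = 0.00527) and INVS, a ciliary protein that binds Dishevelled, by 0.34 (SE 0.10, adjusted p = 0.0472). NFATC2, a transcription factor that calcium signals activate in lymphocytes among other cells, fell by 2.50 on the log2 scale (SE 0.32, adjusted p = 0.00220), from 2.06 ± 0.122 to 0.362 ± 0.129 CPM. The marker list of T and cytotoxic cells had a median log2 fold change of -3.21. Whether the RNA behind those markers has a part in the fall of NFATC2 was not tested. VANGL1, a membrane protein of the polarity complex, fell by 0.28 (SE 0.07, adjusted p = 0.0409). INVS is covered by TEX10 on the other strand, at 96.3 CPM, and is uncertain. The adjusted p of INVS was 0.120 without control replicate 2 and 0.146, 0.143 and 0.123 without overexpression replicates 1, 2 and 3. For VANGL1 it was 0.0740 without control replicate 1 and 0.130, 0.125 and 0.155 without overexpression replicates 1, 2 and 3. With the replicate number as a block, the adjusted p was 0.0658 for INVS and 0.0692 for VANGL1, so neither was called. Without control replicate 3 the log2 fold change was 0.72 for DAAM1, 0.60 for CAMK2D, 0.28 for INVS, -2.46 for NFATC2 and -0.19 for VANGL1, all called. The list had 10 called genes in that fit, beside 27.0% of all genes tested, and 3 without overexpression replicate 1, overexpression replicate 2 or overexpression replicate 3, beside 6.92%, 5.98% and 7.09%.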

How the data were processed

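RNA was sequenced from 6 libraries of HK-2 cells, 3 per group, which the labels describe as poly(A)-selected, strand-specific and paired-end with reads of 150 bases; the series' design text names ribosomal RNA removal and another sequencer instead. The authors deposited whole-number counts per gene in 1 table, not normalized, under a name that speaks of FPKM. The submitters' processing notes name cutadapt 1.9, FastQC and the build hg38. The aligner, the counting tool and the annotation are not given in the sources used here. Groups and replicate numbers come from the sample titles.

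The deposited counts went through edgeR 4.0.16 in R 4.3.3: filterByExpr by group, TMM scaling, and the quasi-likelihood test of glmQLFit and glmQLFTest, with Benjamini-Hochberg adjustment over all genes tested. SEs were obtained from the log2 fold change and the root of F, and CPM values are on the TMM scale. For the principal component analysis, log2 CPM values (prior count 2) were centred without scaling. Libraries of a group were compared by a chi-square test, and none agreed within sampling noise. The scripts were tested on simulated data. Levels of the Wnt genes were not compared with each other, since transcript lengths were not used here, and the most abundant gene of a marker list is the one with the highest mean CPM, without regard to length.

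The text names SOSTDC1, called members, other tested members with at least 5 CPM on average, the remaining members by counts, and from each of 4 pathway lists the called genes with the smallest p, at most 3 per direction. The members and the lists, typed from general knowledge, were chosen with earlier results of these data known. Alternatives were DESeq2 1.42.0 size factors, library sizes alone, library sizes without SOSTDC1 or without mitochondrial genes, DESeq2's Wald test, limma-voom (limma 3.58.1), no filter, a minimum of 10 counts per library, a replicate block, other thresholds and each library left out. The counts of called genes by role and list with a library left out or with another test were added after seeing the data.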

Additional observations from a re-analysis of the deposited data

How the results depend on the processing

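Over 509 refits of the named genes, 448 kept the direction and the side of the threshold, 49 lost the call, 11 gained it and 1 changed sign, which was RYK: its log2 fold change ran from -0.0783 (without control replicate 3) to 0.0203 (without control replicate 1). With each library left out in turn, genes differentially expressed numbered 1137 to 5091 and members differentially expressed 1 to 11, with 1 to 10 members higher and 0 to 1 lower. An adjusted p under 0.01 left 1103 genes and 1 member, which was higher, and 0 members lower. A log2 fold change of at least 0.5 left 1243 genes and 1 member higher, with 0 lower, and that member was DKK1 in both cases. Without a filter on low counts the median of the members was -0.10 over 42 members and that of all genes -0.07, since genes with few counts then entered. DKK3 and FZD1 were also called with library sizes alone and with DESeq2's Wald test, and FZD1 with at least 10 counts in every library. APC2, CTNNBIP1, INVS and VANGL1 were not called with no filter or with a replicate block, nor APC2 and INVS with library sizes alone. DESeq2's Wald test called 5 genes each of the co-receptor list and of the destruction complex list, against 3 and 2 by edgeR, and 20.5% of all genes tested. With a replicate block 2382 genes and 5 members were called, the 5 being those called without it. Deviations of control and overexpression libraries with the same number correlated at 0.07, -0.05 and 0.04, and control replicates 2 and 3 correlated best with overexpression replicates 1 and 2 (0.0991 and 0.107), so the numbers were not taken to pair the samples. The cause of these differences was not tested. Of the 22 members that were not tested, 7 had 0 counts in every library and 15 at most 26.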
